A study of Homo sapiens with 4 samples.

Results

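Replication-dependent histone genes were taken from the count table as every gene whose symbol begins with HIST1H, HIST2H, HIST3H or HIST4H followed by a histone class, or with H1-, H2AC, H2BC, H3C or H4C, symbols being matched through the Ensembl identifier. Of 63677 genes in the table, 65 that met this rule are described, with 15 in class H1, 15 in H2A, 19 in H2B, 9 in H3 and 7 in H4. They comprised 38 protein-coding replication-dependent genes, 23 pseudogenes, 3 linker histone genes that are not tied to replication (H1-7, H1-8 and H1-10) and the antisense RNA H1-10-AS1. A further 36 symbols of the rule, 34 of them coding and spread evenly over H2A, H2B, H3 and H4 with 9 symbols in each class, did not match the table by identifier and were not analysed here. No H1 symbol was among those 36.

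The libraries came from HCT116, a human colorectal cancer cell line, transfected for 48 h per the labels (the study's methods give a shorter time) with an antisense oligonucleotide (ASO) against GAA repeats or with a control ASO. Each ASO had 2 libraries, titled 232 and 234, which are called replicate 1 and replicate 2. The study's methods describe experiments done in duplicate, and the labels do not say what 232 and 234 stand for. All 4 libraries shared the line and the transfection, and no untransfected library was analysed here. Total counts were 10538284 and 17894953 for replicates 1 and 2 of the anti-GAA ASO and 15347298 and 15924742 for replicates 1 and 2 of the control ASO. Epithelial markers were present, with EPCAM between 629 and 740 CPM (counts scaled to library size) and KRT19 between 1114 and 1639 CPM, although 2 of the 8 markers listed were at or near 0 (CDX1 and VIL1). Of 12 fibroblast, leukocyte and endothelial markers, COL1A1 reached 10.1 to 14.6 CPM, and every other was below 1 CPM in each library.

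Replication-dependent histones supply the nucleosome core (H2A, H2B, H3 and H4) and its linker (H1) while DNA is copied, and their messages accumulate in S phase. Unlike other messages, theirs mostly end in a short stem-loop in the 3′ untranslated region in place of a poly(A) tail. The stem-loop binding protein SLBP holds this structure during 3′ end processing and translation, and the messages are destroyed quickly when DNA synthesis stops.

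The sequences behind these descriptions are the stem-loop of the members and the ASO itself. A stem of 6 base pairs opening with GG and closed by a loop of 4 bases opening with TTT was sought in the transcripts. Among the 65 members, all transcripts were searched, and 37 members had it, 36 of them coding. In the whole table only the longest transcript of each gene was searched. That gave 68 genes (0.13% of 52181 genes with a GENCODE 44 transcript). A gene with the stem-loop only in a shorter transcript is missed there, so the 68 genes and the 37 members are not comparable. The 4 below carry the loop in capitals, as DNA, 5′ to 3′, and show 1 gene each of H4, H1, H2B and H2A. H4C3 and H1-4 were called in the replicate comparison described below, whereas H2BC12 and H2AC20, shown for their loops, were called in neither comparison. The loop was TTTC in H4C3 and H1-4, TTTA in H2BC12 and TTTT in H2AC20, and the stem of H4C3 was unlike that of the other 3.
H4C3: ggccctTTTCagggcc
H1-4: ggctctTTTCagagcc
H2BC12: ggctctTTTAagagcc
H2AC20: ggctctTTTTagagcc
In each of these genes the annotated transcript ended 5 bases past the stem-loop. In 11 members, 3 of them tested (H2AC6, H2AC25 and H2BC21), an annotated transcript ran over 100 bases past it. Whether such forms carried a poly(A) tail in these libraries was not tested. The anti-GAA ASO was 21 bases long, with 6 modified (methoxyethyl) bases at each end and 9 DNA bases between them, in capitals here, which allow cleavage of a paired RNA by RNase H.
anti-GAA ASO: ttcttcTTCTTCTTCttcttc
A match to it is a run of GAA repeats. No member held an unbroken GAA repeat of 12 bases or more, against 617 of 52181 genes (1.18%), and the longest run in a member was 11 bases, in H1-10.

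H4C3 accounted for most histone counts, and its share followed the replicate number. This gene (ENSG00000197061, formerly HIST1H4C) encodes histone H4 from a single exon at chr6:26103933-26104337 on the plus strand of GRCh38 in GENCODE 44. It held 29823 of 32398 histone counts in replicate 1 of the anti-GAA ASO, or 92.1% (95% Wilson interval 91.8 to 92.3). In replicate 1 of the control ASO it held 89.4% (89.1 to 89.7) of 34346 histone counts. The share was 76.8% (76.2 to 77.4) of 19455 counts in replicate 2 of the anti-GAA ASO and 58.2% (57.2 to 59.2) of 10234 in replicate 2 of the control ASO. These intervals cover counting error only, since reads without molecular identifiers are not independent molecules. H4C3 ranked 34th and 51st among all genes in the replicate 1 libraries of the anti-GAA and control ASO, and 145th and 378th in the replicate 2 libraries. The remaining members summed to 260 and 237 CPM in the replicate 1 libraries of the anti-GAA and control ASO and to 254 and 252 CPM in the replicate 2 libraries. This remainder stayed within that narrow range while H4C3 was lower in replicate 2.

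Few other members were detected well. All 4 libraries held 0 counts for 26 of the 65 genes, where 3 counts, the upper limit that a count of 0 allows, equal 0.168 to 0.303 CPM. A further 21 had counts but did not pass the filter on low counts, with no more than 15 counts in any library. The filter left 18 members for testing: 4 in H1 (H1-2, H1-4, H1-10 and H1-10-AS1), 4 in H2A, 7 in H2B, 2 in H3 and H4C3 alone in H4. Of these 18, 15 were coding replication-dependent genes. In H4, the next most abundant genes were H4C11, with 2 and 11 counts in the anti-GAA libraries and 15 and 8 in the control libraries, and H4C8, with 2 and 2 against 7 and 2. H3C9P, a pseudogene, held 3 to 7 counts a library. Because members resemble each other, 21 of the 65 shared at least 50% of their 50-base windows with transcripts of other genes, and how reads that fit several places were treated was not stated. Of those 21, 4 were tested and 11 were at 0, against 14 tested and 15 at 0 among the other 44. H4C3, H1-4 and H1-2 shared no window with another gene.

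Levels per length (CPM per kilobase) used the shortest GENCODE 44 transcript with the stem-loop, or the longest transcript where none had it. Counts covered all forms of a gene, so the order of genes with longer forms can depend on this choice. H2AC6 was divided by 519 bases (longest form 1668) and H2BC5 by 486 (longest form 789). At these lengths H4C3 stood far above the other members. Its mean over the 4 libraries was 3830 CPM per kilobase, with a range of 867 to 7440. The linker gene H1-2 followed at 107 (91.5 to 120), and H2BC12, which encodes an H2B, at 77.5 (66.3 to 91.7). The ranges of H1-2 and H2BC12 overlapped slightly, so their order was not set beyond the spread between libraries. H1-10 stood at 48.3 and H2BC5 at 43.7, again with overlapping ranges. H2AC20 (16.3) and H2AC6 (15.5) led H2A at the lengths used. In H3 the highest was H3C4 at 2.90, which shared 96.5% of its windows with other genes.

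The comparison of the anti-GAA ASO with the control ASO asked whether transcript levels differed once GAA-repeat RNA had been targeted. No histone gene was called different by edgeR (quasi-likelihood test, adjusted p under 0.05, 0 of 18), and neither was any other gene (0 of 15116, 0.0%). By an unadjusted p under 0.05, 1 member was lower (H3C4) and 0 were higher, where 3.46% and 1.02% of all genes tested were lower and higher. DESeq2 called 0 of 18 members and 5 of 15116 genes (0.0331%), and 0 of 18 members had an unadjusted p under 0.05 with that tool, beside 2.76% of all genes. The median log2 fold change of the 18 members was 0.16, beside 0.01 over all genes tested, and 10 of 18 were above 0, beside 51.6% of all genes. Both anti-GAA libraries lay above both control libraries in 5 of 18 members (15.5% of all genes did so) and below them in 3 of 18 (16.9%).

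H4C3 stood at 3013 and 839 CPM in replicates 1 and 2 of the anti-GAA ASO and at 2002 and 351 CPM in replicates 1 and 2 of the control ASO. The groups overlapped, because the replicate 1 control library was above the replicate 2 anti-GAA library. The mean was 1926 ± 1537 CPM in the anti-GAA group and 1177 ± 1168 CPM in the control group (SD, n = 2 each). With the same replicate number, the anti-GAA level was 1.505 times the control level in replicate 1 and 2.39 times in replicate 2. With the replicate number as a block, the log2 fold change was 0.92 ± 0.18 (SE, adjusted p = 0.0199, edgeR), past the threshold. DESeq2 with the block called H4C3 as well (adjusted p = 0.00258). The labels do not tie the number to a batch and only 2 pairs exist, so whether the block applies is not known. Without the block, the log2 fold change was 0.71 ± 0.83 (SE), with an adjusted p of 0.997 by edgeR. This estimate changed sign without replicate 1 of the anti-GAA ASO (−0.48, adjusted p = 1.00) or replicate 2 of the control ASO (−0.045, adjusted p = 1.00), and passed the threshold without replicate 1 of the control ASO (2.45, adjusted p = 0.0312).

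H3C4, an H3 gene, had 11 and 13 counts in the anti-GAA libraries and 34 and 30 in the control libraries. Its levels were 1.11 and 0.731 CPM against 2.22 and 1.77 CPM, without overlap, and its log2 fold change was −1.14 ± 0.47 (SE, unadjusted p = 0.0462, adjusted p = 0.997, edgeR). In H2A, the coding genes H2AC6 and H2AC25 had higher levels in both anti-GAA libraries than in either control library, with log2 fold changes of 0.17 and 0.57 and an adjusted p of 0.997 by edgeR. H2BC12 was at 40.0 and 45.4 CPM in the anti-GAA libraries against 32.8 and 35.3 CPM in the control libraries, again without overlap, with a log2 fold change of 0.33 ± 0.20 (SE, adjusted p = 0.997, edgeR). H2BC15 and H2BC21, in the same class, lay lower in both anti-GAA libraries, at −0.74 and −1.02 on the log2 scale (adjusted p = 0.997, edgeR). H1-2 was close to 0, at −0.05 ± 0.23 (SE). H1-10-AS1 lies antisense to H1-10, and whether counting used strand was not stated, so reads from the stretch the pair shares may not have been told apart.

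Within the replicate numbers, 11 of 18 members differed from the control in the same direction both times (61.8% of all genes did so), 8 of them higher and 3 lower with the anti-GAA ASO. Members of a class lay on both sides of 0 in H1 (3 of 4 tested genes above 0), H2A (3 of 4), H2B (2 of 7) and H3 (1 of 2). H1-4 was at 1.07 ± 0.86 (SE, adjusted p = 0.997, edgeR) on the log2 scale, and this ranged from −0.58 to 2.13 with a library left out.

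The replicate comparison asked how the libraries titled 234 (replicate 2) differed from those titled 232 (replicate 1), with the ASO kept in the fit. Here edgeR called 3 of 18 members. H4C3 and H1-4 were lower in replicate 2 (2 of 18, beside 7.52% of all genes tested), and H2BC5 was higher (1 of 18, beside 6.98%). DESeq2 called H4C3 and H1-4 lower as well (3.27% of all genes) and 0 of 18 members higher (2.09%). Both replicate 2 libraries lay below both replicate 1 libraries in 3 members, H4C3, H1-4 and H2AC20 (24.9% of all genes), and above them in 2, H2BC5 and H2AC11 (25.9%). The median log2 fold change of the 18 members was −7.5e-05, beside 0.02 over all genes, and 9 of 18 were below 0, beside 48.6% of all genes. Of the 14 tested members with a stem-loop, 7 were below 0, beside 48.6% of all genes, and the stem-loop was not tested against direction.

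**Figure D1:**
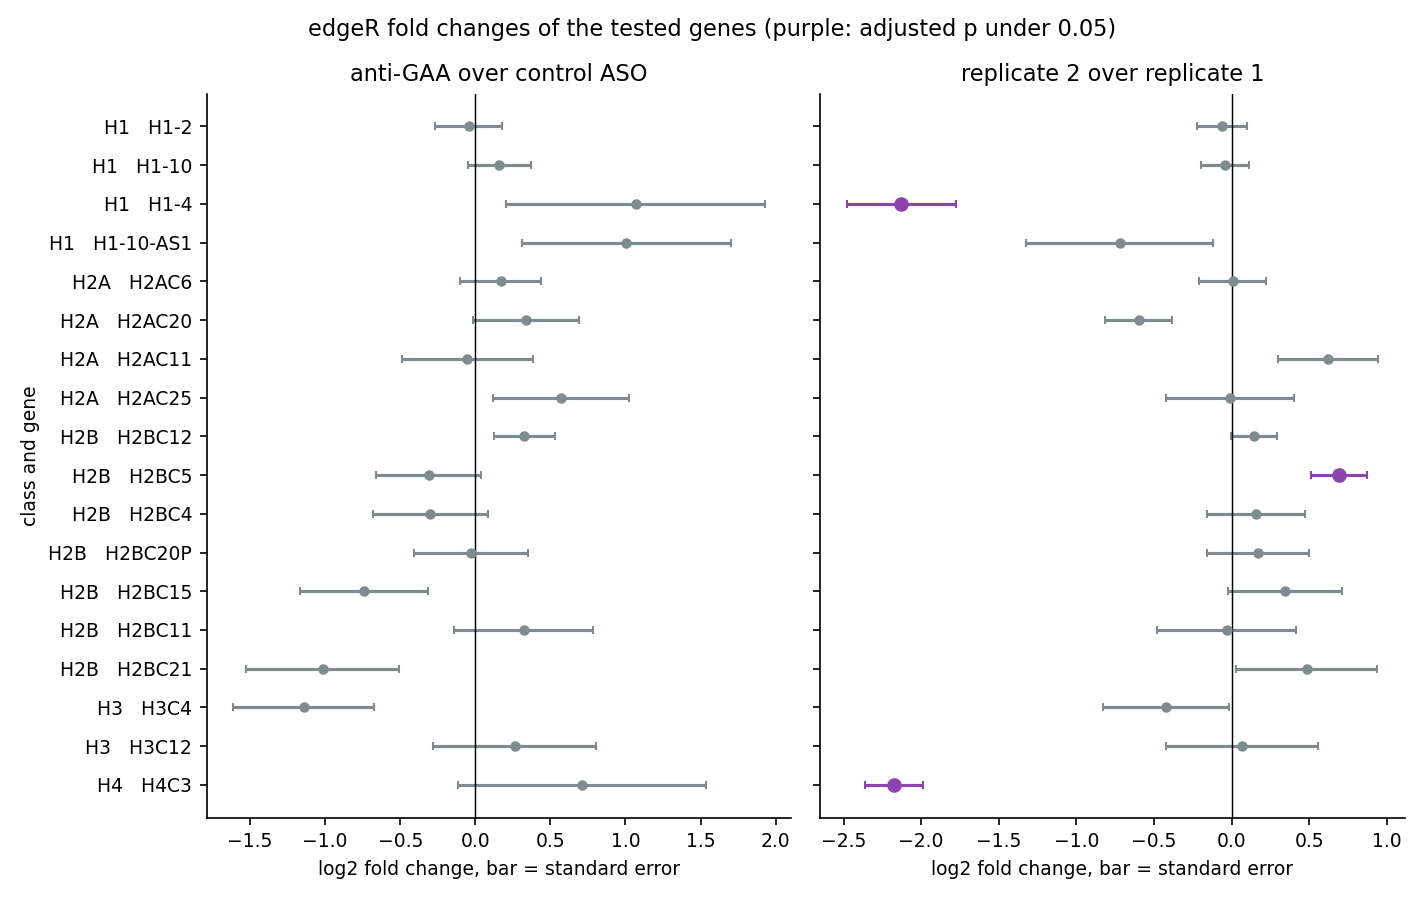
Log2 fold change of the 18 tested histone genes by class (rows) for anti-GAA over control ASO (left) and for replicate 2 over replicate 1 (right), with bars of 1 standard error from edgeR. No gene passed an adjusted p of 0.05 on the left, and H4C3, H1-4 and H2BC5 passed on the right (purple).

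H4C3 fell from 3013 to 839 CPM between replicates 1 and 2 of the anti-GAA ASO and from 2002 to 351 CPM between those of the control ASO. This was 3.59-fold and 5.70-fold, and both replicate 2 libraries were below both replicate 1 libraries. The log2 fold change was −2.18 ± 0.19 (SE, adjusted p = 1.71e-05, edgeR), and it stayed between −1.59 and −2.84 with an adjusted p under the threshold when any library was left out, in fits with no ASO term. Within the ASOs the change was −1.84 and −2.51 on the log2 scale. Whether fewer cells in S phase or less H4C3 RNA in each cell lay behind it cannot be told apart in bulk libraries.

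H1-4 (ENSG00000168298, formerly HIST1H1E), a replication-dependent linker histone at chr6:26156329-26157115 on the plus strand (GRCh38, a single exon), was much less abundant. It was at 6.87 and 1.24 CPM in replicates 1 and 2 of the anti-GAA ASO and at 2.87 and 0.885 CPM in those of the control ASO. It fell by 2.13 ± 0.35 (SE) on the log2 scale (adjusted p = 0.00177, edgeR), from 68 and 44 counts in replicate 1 to 22 and 15 in replicate 2. With no ASO term in the fit the adjusted p was 0.0528, and when its highest library (anti-GAA, replicate 1) was also left out, the change was −1.43 with an adjusted p of 0.239 (edgeR).

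H1-2 (ENSG00000187837, formerly HIST1H1C), another linker histone of the chromosome 6 cluster (chr6:26055740-26056470, minus strand, GRCh38), is shown beside it. Its levels were 87.7 and 66.9 CPM in replicates 1 and 2 of the anti-GAA ASO and 72.5 and 86.8 CPM in those of the control ASO. No side was higher throughout, and the log2 fold change was −0.06 ± 0.16 (SE, adjusted p = 0.839, edgeR). No test of H1-4 against H1-2 was made. The 200 bases upstream of the RefSeq start of these genes (GRCh38.p14, chr6:26156129-26156328 for H1-4 and chr6:26056471-26056670, minus strand, for H1-2) follow, with matches to 4 promoter motifs in capitals.
H1-4: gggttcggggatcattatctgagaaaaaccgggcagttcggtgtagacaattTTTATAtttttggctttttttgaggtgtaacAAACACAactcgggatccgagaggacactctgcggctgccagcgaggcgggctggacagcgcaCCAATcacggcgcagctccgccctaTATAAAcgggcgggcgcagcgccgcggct
H1-2: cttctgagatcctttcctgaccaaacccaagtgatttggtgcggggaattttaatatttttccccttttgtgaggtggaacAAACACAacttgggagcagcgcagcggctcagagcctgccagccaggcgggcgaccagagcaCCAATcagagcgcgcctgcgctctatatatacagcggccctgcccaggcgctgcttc
Both windows held the H1 box (AAACACA) and CCAAT, and TATAAA was matched in H1-4 alone. Searched on both strands over 250 bases before to 50 after the start, none of the motifs lying within another, the H1 box was found in all 6 coding replication-dependent H1 genes and in 5.76% of 27305 promoters, 1 for each symbol. It was also found in 1 of 8 H2A promoters (H2AC20), 2 of 5 in H3 (H3C14 and H3C15), 0 of 10 in H2B and 0 of 5 in H4, and in H1-7. CCAAT was found in the promoters of 29 of 34 matched coding members (35.7% of all promoters), with 0 of 5 in H4 (H4C3 was not among the matched promoters), and TATAAA in 23 of 34 (11.95%). The octamer ATTTGCAT was found in 6 of 8 H2A and 6 of 10 H2B promoters, against 1.80% of all promoters. A match describes the letters in the window and not a bound site.

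**Figure D2:**
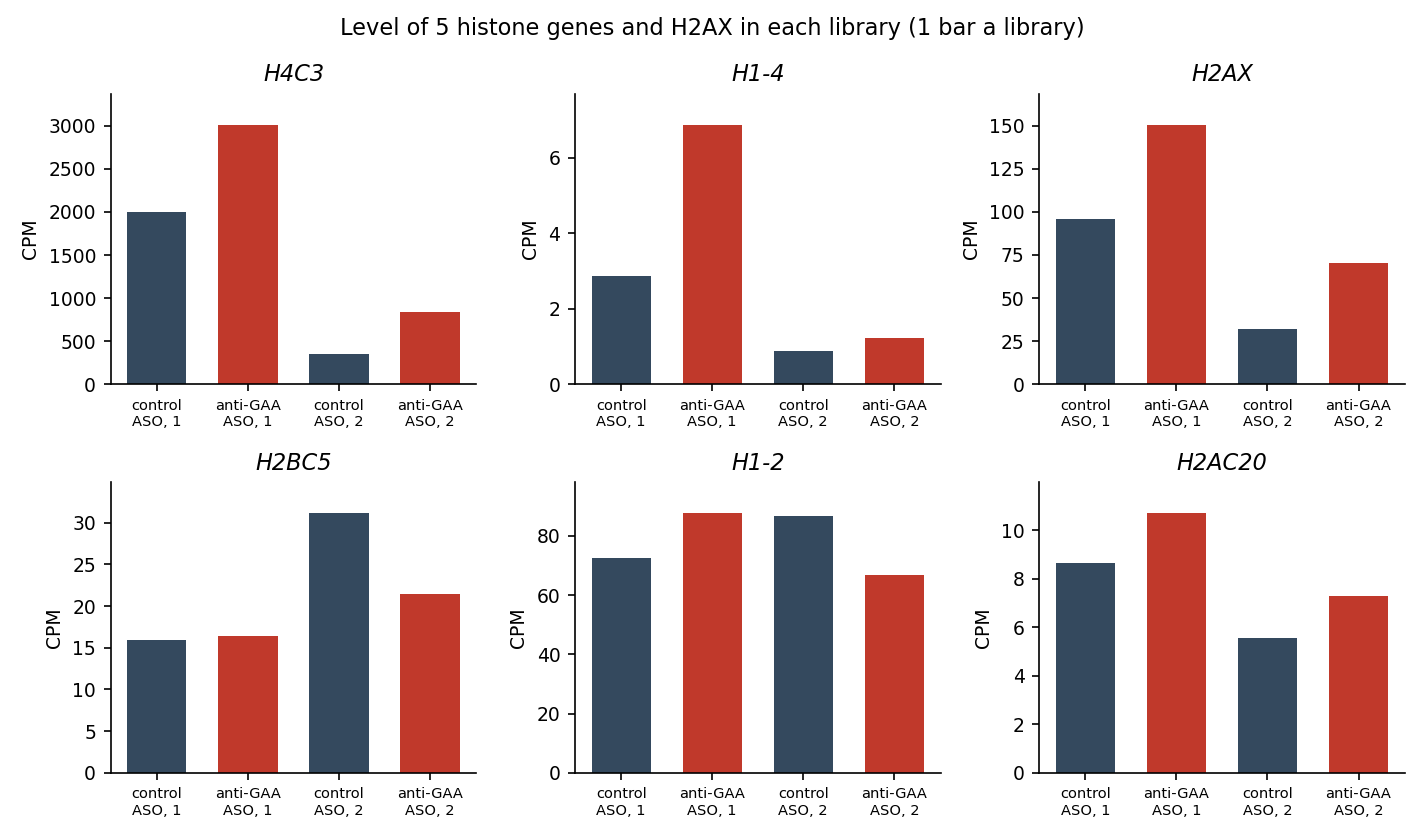
CPM (y axis, from 0, a separate scale for each gene) of H4C3, H1-4, H2AX, H2BC5, H1-2 and H2AC20 in each library (1 bar a library, red for anti-GAA and dark blue for control ASO, with the replicate number). H4C3, H1-4, H2AX and H2AC20 are lower in both replicate 2 libraries, H2BC5 is higher in both, and H1-2 is neither.

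H2BC5 was the member called in the other direction. This H2B gene, whose annotation includes a form of 2 exons, rose from 16.4 to 21.5 CPM between replicates 1 and 2 of the anti-GAA ASO and from 15.9 to 31.1 CPM between those of the control ASO. The log2 difference was 0.69 ± 0.18 (SE, adjusted p = 0.0227, edgeR). DESeq2 did not call it (adjusted p = 0.125), it did not pass with no ASO term (adjusted p = 0.120, edgeR), and in fits that also left out a library it passed only without replicate 2 of the anti-GAA ASO (0.95, adjusted p = 0.0122, edgeR).

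H2AC20 was at 10.7 and 8.67 CPM in the replicate 1 libraries of the anti-GAA and control ASO and at 7.31 and 5.54 CPM in the replicate 2 libraries. The groups did not overlap, but the log2 fold change of −0.60 ± 0.22 (SE) had an adjusted p of 0.0779 by edgeR. H2AC6 and H2BC12, the most abundant members of H2A and H2B by mean CPM, were at 0.01 and 0.14 on the log2 scale with adjusted p-values of 0.986 and 0.557 by edgeR. H2AC11 lay above 0, at 0.62 ± 0.32 (SE, adjusted p = 0.209, edgeR). H2BC4, H3C12 and H3C4 had log2 fold changes of 0.16, 0.07 and −0.42, none past the threshold in edgeR.

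Summed by class, H4 moved most between replicates, carried by H4C3. H4 stood at 3014 and 840 CPM in replicates 1 and 2 of the anti-GAA ASO and at 2004 and 352 CPM in those of the control ASO, and without H4C3 the other 6 genes summed to 0.505 to 1.70 CPM. H1 went from 167 to 152 CPM in the anti-GAA libraries and from 152 to 151 CPM in the control libraries, with differences of −0.14 and −0.02 on the log2 scale. That sum includes H1-10, which is not tied to replication, and without it the 6 coding replication-dependent H1 genes, nearly all H1-2, went from 94.8 to 68.1 CPM (−0.48) in the anti-GAA libraries and from 75.5 to 87.8 CPM (0.22) in the control libraries. H2B rose from 66.2 to 77.1 CPM and from 59.2 to 79.9 CPM, and H2A went from 23.8 to 21.6 CPM and from 20.3 to 18.3 CPM. H3 stayed between 2.43 and 3.78 CPM. With the anti-GAA ASO the H2A sum was above the control sum by 0.23 and 0.24 on the log2 scale, and H4 by 0.59 and 1.26, whereas H1 gave 0.13 and 0.01, H2B 0.16 and −0.05, and H3 −0.64 and −0.01. The 6 coding replication-dependent H1 genes gave 0.33 in replicate 1 and −0.37 in replicate 2, opposite in sign. These sums have 2 values a group, for which an exact permutation test cannot give a p below 0.3333, and no test was made.

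H2AX, a variant H2A that marks DNA breaks when phosphorylated and whose message can end in the same stem-loop, followed the order of H4C3. It was at 151 and 70.5 CPM in replicates 1 and 2 of the anti-GAA ASO and at 96.1 and 32.2 CPM in those of the control ASO. Its log2 fold change between replicates was −1.33 ± 0.15 (SE, adjusted p = 0.000129, edgeR) and between ASOs 0.78 ± 0.54 (SE, adjusted p = 0.997, edgeR). The value between ASOs ranged from 0.14 to 1.77 with a library left out. With the replicate number as a block it was 0.88 ± 0.15 (SE, adjusted p = 0.00993, edgeR), with the same limit as for H4C3. With no ASO term the adjusted p between replicates was 0.0776 (edgeR). The order anti-GAA replicate 1, control replicate 1, anti-GAA replicate 2, control replicate 2 from high to low was shared by 3 of 18 members (H4C3, H1-4 and H2AC20) and by 9.08% of all genes. Of 10 variants tested, including H1-10, H2AX alone was called lower and 0 were called higher in replicate 2 (edgeR, beside 7.52% and 6.98% of all genes), and no test of H2AX against the others was made. H3-5, a variant H3, was at −0.99 on the log2 scale (adjusted p = 0.106, edgeR), and H2AZ1 (1461 to 1823 CPM), H3-3B (1679 to 2010 CPM) and CENPA (55.1 to 62.2 CPM), which act outside replication-coupled assembly, did not pass the threshold.

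Genes that make, process or place histones were measured beside them. Of 40 tested genes of histone transcription, 3′ end processing and RNA decay (the processing list), 0 were called between the ASOs. In replicate 2, 7 of them were lower and 1 higher (edgeR, beside 7.52% and 6.98% of all genes). Their median log2 fold change was −0.18, beside 0.02 for all genes. SLBP was the gene that was higher, at 306 and 444 CPM in replicates 1 and 2 of the anti-GAA ASO and at 319 and 423 CPM in those of the control ASO (0.47 ± 0.14, SE, adjusted p = 0.0406, edgeR), opposite in direction to H4C3. It did not pass by DESeq2 (adjusted p = 0.0831), with no ASO term (adjusted p = 0.137, edgeR) or with any library left out as well (lowest adjusted p = 0.157, edgeR). NPAT and CASP8AP2, which drive histone transcription at the histone locus body, were at −0.24 and 0.06, and the U7 particle proteins LSM10 and LSM11, with its partner ZNF473, at −0.43, −0.37 and −0.08, none past the threshold in edgeR. The genes that were lower were LSM3, LSM5 and LSM7 of the LSM rings, the exosome nuclease EXOSC10, the elongation factors CDK9 and NELFB and the cyclin CCNE1, between −0.47 and −1.02 on the log2 scale. DESeq2 called 3 of these lower (LSM3, LSM7 and EXOSC10) and 0 of the 40 higher, beside 3.27% and 2.09% of all genes.

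Of 38 tested S phase genes, 6 were lower and 1 higher in replicate 2 (edgeR, beside 7.52% and 6.98% of all genes), with a median of −0.16, and 0 were called between the ASOs. SLBP and CCNE1 are in this list as well. Of the replicative helicase subunits, MCM7, MCM2 and MCM5 were lower, with MCM7 going from 972 to 586 CPM in the anti-GAA libraries and from 716 to 498 CPM in the control libraries (−0.63 ± 0.15, SE, adjusted p = 0.0147, edgeR). MCM3, MCM4 and MCM6 of the same ring, at −0.03, 0.06 and −0.16, did not pass. MCM2 and MCM5 gave −0.53 and −0.46, the transcription factor E2F2 −0.73 and the checkpoint adaptor CLSPN −1.49 on the log2 scale, all past the threshold in edgeR. CLSPN was lowest in replicate 2 of the anti-GAA ASO (10.96 CPM, against 53.2, 47.9 and 28.1 elsewhere), without which, and with no ASO term, it was at −0.85 (adjusted p = 0.0174, edgeR). With no ASO term alone it was at −1.37 (adjusted p = 0.0698, edgeR). DESeq2 called MCM2, MCM7 and E2F2 lower and 0 of the 38 higher, beside 3.27% and 2.09% of all genes. PCNA, the polymerase clamp, was at 0.22 (adjusted p = 0.356, edgeR). Of 23 tested histone chaperones, SUPT6H was lower (−0.62) and HIRA and NAP1L1 were higher (0.60 and 0.56) in replicate 2 by edgeR, beside 7.52% and 6.98% of all genes, and DESeq2 did not call SUPT6H (adjusted p = 0.0614). With no ASO term in the fit, 0 genes of the processing, S phase and chaperone lists were called. The part of the cell cycle genes in the change of H4C3 was not tested.

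Because replication-dependent histone messages mostly lack a poly(A) tail, other RNAs without a tail were listed. Of 21 such RNAs listed, 13 were matched in the table. The rest (RN7SK, RN7SL1, RN7SL2, RMRP, RPPH1, RNU11, RNU12 and SCARNA2) were not matched, so the level of RNAs without a tail is known only in part. Of the 13, TERC and SNORD3A passed the filter, and the other 11 were below 1 CPM in each library. TERC, the telomerase RNA, was at 11.3 and 11.1 CPM in replicates 1 and 2 of the anti-GAA ASO and at 11.3 and 6.61 CPM in those of the control ASO. SNORD3A, the U3 small nucleolar RNA, was at 3.33 and 2.25 CPM and at 2.74 and 1.77 CPM. Both had the library order of H4C3 (9.08% of all genes), although the 3 highest TERC libraries were nearly level. Between replicates they changed by −0.40 and −0.60 on the log2 scale, with adjusted p-values of 0.253 and 0.231 by edgeR. The study's methods name a kit for messenger RNA and the labels one for total RNA, and how much a difference in library preparation adds to the change in H4C3 was not tested.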

How the data were processed

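RNA-seq counts per gene were analysed from 4 libraries of 2 groups. Per the labels and the study's methods, the authors trimmed reads, aligned them with STAR to hg19 (GRCh37) and counted them per Ensembl gene with featureCounts, and the deposited values are raw counts without normalization. Neither the strand setting nor the treatment of reads that fit several places was stated. Symbols came from GENCODE 44 by Ensembl identifier (52181 of 63677 genes), and its GRCh38 transcripts gave lengths, stem-loops and shared windows. Promoter windows came from RefSeq (34 of 38 coding members), leaving out H3C4, whose RefSeq start lay over 500 bases from its GENCODE start. Counts of 10538284 to 17894953 a library were scaled by TMM and filtered by filterByExpr (15116 genes kept), then tested with edgeR 4.0.16 by the quasi-likelihood test (R 4.3.3) with Benjamini-Hochberg adjustment over all genes, the ASO alone in the fit for the ASO comparison and ASO plus replicate number for the replicate comparison. Fits leaving out a library dropped the ASO term in the replicate comparison, and the lone sample was assumed to vary like the other group. Alternatives were DESeq2 1.42.0, other scalings, dropping the filter or asking for a mean of 1 CPM, and offsets for length and GC content. Scripts were tested on simulated data. The 3 most abundant members of each class, every member and related gene past an adjusted p of 0.05 (related genes to a maximum of 15 by p) and 6 processing factors were named. Other members, LSM5, PCNA, MCM3, MCM4, MCM6 and the other variants and RNAs without a tail were named after their values were seen, to describe a group. Members and lists were chosen with earlier results of these data known. A gene that met the rule is not reported here.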

Additional observations from a re-analysis of the deposited data

Results flagged for a closer look

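Of the members with a mean of at least 10 CPM, 2 linker histone genes had differences between the replicate numbers of opposite sign under the 2 ASOs, each from single libraries, and the difference was not tested, because no residual spread is left for it. H1-10, a linker histone outside replication, was higher in replicate 2 than in replicate 1 with the anti-GAA ASO (0.21 on the log2 scale) and lower with the control ASO (−0.29). H1-2 was lower in replicate 2 with the anti-GAA ASO (−0.39) and higher with the control ASO (0.26). Neither passed the threshold between replicates over both ASOs (adjusted p = 0.889 for H1-10 and 0.839 for H1-2, edgeR).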

How the results depend on the processing

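Between the ASOs, edgeR called 0 genes in all, against 5 with DESeq2, 116 with no filter and 0 to 18 when a library was left out. Members called lower were 1 at an unadjusted p under 0.05 (H3C4), and members called higher 0 to 1 without a library (H4C3, without replicate 1 of the control ASO). The labels do not say that a replicate number marks a batch, and only 2 pairs exist, whose deviations from the group means correlated at 0.5638 over genes. With the replicate block, 258 genes were called (58 with DESeq2 and 289 with length and GC offsets), among them 1 member in each fit, H4C3 (0.92, adjusted p = 0.0199 by edgeR), and 1 variant, H2AX (0.88, adjusted p = 0.00993). By edgeR, the block added no other call among the tested members and lists.

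Between the replicates, 2191 genes were called, against 810 with DESeq2, 368 with no ASO term and 353 to 971 with a library left out. Members called lower were 1 with no ASO term (H4C3) and 1 to 2 without a library. Members called higher, 1 in the reported fit (H2BC5), were 0 with DESeq2, 0 with no ASO term and 0 to 1 without a library. With total counts, 2 variants were called (H2AX and MACROH2A1). With no ASO term, an alternative chosen after seeing the data for these lists, 0 processing, 0 chaperone, 0 S phase and 0 variant genes were called. Without a library and with no ASO term, 0 to 2 processing, 0 to 1 chaperone and 1 to 3 S phase genes were called.

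Without their most abundant member the class sums (log2) moved, between ASOs to 0.20 (H1), 0.28 (H2A), −0.25 (H2B), 0.38 (H3) and −0.68 (H4), and between replicates to −0.24 (H2A), 0.52 (H2B) and −0.32 (H4). With total counts the H1 sum between ASOs was −0.022, and for its replication-dependent coding members alone, chosen after seeing the data, −0.019. The H2A sums, whose values in the 2 pairs nearly coincide, were 0.14 with total counts, 0.244 with DESeq2 size factors and 0.229 for coding members between ASOs, and −0.056, −0.151 and −0.147 between replicates. Without a library the sums between ASOs ranged from 0.16 to 0.31 (H2A), −0.16 to 0.27 (H2B) and −0.33 to 2.18 (H4). The H1 sum ranged from 0.0017 to 0.14 and the H3 sum from −0.55 to −0.10. Between replicates the sums ranged from −0.26 to −0.023 (H2A) and −2.80 to −1.55 (H4). There the H1 sum ranged from −0.15 to −0.012, and the H3 sum turned sign, from −0.45 to 0.19.

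Single genes near 0 changed sign between replicates with total counts (H1-10 0.045, H1-2 0.024, ZNF473 0.011) and with DESeq2 size factors (H2AC6 −6.58e-05). Leaving out a library turned the sign between ASOs for H1-2 (−0.24 to 0.14), H1-4 (−0.58 to 2.13), H2AC11 (−0.45 to 0.49), H2BC4 (−0.57 to 0.029), H2BC5 (−0.72 to 0.26), H3C12 (−0.30 to 0.63) and H4C3 (−0.48 to 2.45). It did so between replicates for H1-10 (−0.25 to 0.16), H1-2 (−0.26 to 0.11), H2AC6 (−0.11 to 0.13), H2BC12 (−0.044 to 0.32), H2BC4 (−0.25 to 0.48), H3C12 (−0.45 to 0.53), H3C4 (−1.22 to 0.16), NPAT (−0.54 to 0.013) and CASP8AP2 (−0.17 to 0.31). H4C3 kept its direction and call between replicates in every fit. Causes were not tested. Of 65 members, 26 were at 0 and 21 too low to test at this depth.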
